A study of Sus scrofa with 6 samples.

Results

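Chemokines are small secreted proteins that steer the movement of white blood cells. Their names give the spacing of the first conserved cysteines, adjacent in the CCL group and parted by a residue in the CXCL group, and their receptors, CCR and CXCR, couple to inhibitory G proteins. Interleukins are signalling proteins exchanged mainly among immune cells. Most of their receptors act through the JAK and STAT proteins, while the interleukin-1 family acts through MYD88 and NF-kB. In skeletal muscle these messengers come from resident and infiltrating leukocytes, from endothelium, fibroblasts and fat cells, and in part from the fibres themselves, as with the muscle cytokines IL6 and IL15.

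These genes were examined in back muscle, the longissimus dorsi, of 3 Northeastern Indigenous boars and 3 Large White boars, the control breed. All 6 boars were killed at 150 days of age after being raised on the same feed in the same housing, per the labels, and each gave 1 Affymetrix Porcine Genome Array. The labels name no treatment and no genetic modification in either breed. Members were all probe sets with a single platform gene symbol made of CCL, CXCL, CCR, CXCR or IL followed by a digit. There were 66 such probe sets for 57 genes, out of 23999 probe sets and 6765 named genes that were tested. For the 8 genes with several probe sets, the one with the highest mean over the 6 arrays was used. No dim probe set was removed.

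Values are log2 of the deposited intensity after quantile normalization, which gives every array the same distribution. The array median was 6.67 for the mean over arrays. Of the 57 genes, 27 had a mean at or above it and 30 a mean below it, and 26 lay below it on all 6 arrays. The genes with a mean below it were CCL3L1, CXCL8, CCL21, CCL25, CCL27 and CCL28 among the ligands and CCR2, CCR7, CCR9 and CXCR6 among the chemokine receptors. Among the interleukins they were IL1A, IL2, IL4, IL5, IL6, IL7, IL10, IL12A, IL12B, IL13, IL17A, IL17B and IL21. Among the interleukin receptor genes they were IL2RA, IL2RG, IL6R, IL7R, IL12RB2, IL18R1 and IL27RA. No detection calls were used, so a value below the median is not evidence that a gene is off.

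The Large White arrays differed among themselves in tissue markers. The 10 measured genes of the muscle fibre list all had means above the array median. Their summed deposited intensity ran from 276319 to 295931 in Northeastern Indigenous boars, against 25998, 325692 and 160072 on Large White replicates 1, 2 and 3. After quantile normalization the list median stood at -3.65, -0.02 and -0.29 on those replicates against the Northeastern Indigenous mean. The summed intensity of the 8 measured adipocyte genes ran from 5670 to 8764 in Northeastern Indigenous boars, against 52036, 5556 and 33748 on Large White replicates 1, 2 and 3. Large White replicates 1 and 3 thus stood apart from the other 4 arrays in the adipocyte genes. The main results are therefore given also without replicates 1 and 3, as the difference against Large White replicate 2 alone. In bulk tissue, fewer cells of a type and less RNA per cell cannot be told apart.

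Most chemokine and interleukin genes were dimmer in Northeastern Indigenous boars, and the widest differences other than that of IL6R were in chemokine ligands. The difference, Northeastern Indigenous minus Large White, was below 0 in 46 of 57 genes, against 46.7% of all named genes. Its median was -0.53 log2 units over the 57 genes and 0.06 over all named genes. Among the 27 genes at or above the array median, 25 had a negative difference (44.5% of named genes on that side of the median), with a median of -0.75. None of the 57 passed limma's test at an adjusted p under 0.05 over all probe sets, and the lowest adjusted p among them was 0.261. Over all probe sets 0 passed as well (0% of named genes), and the lowest adjusted p was 0.0827.

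Looser counts pointed the same way. At an unadjusted p under 0.05 in limma there were 10 genes lower (10.7% of all named genes) and 0 higher in Northeastern Indigenous boars (8.62% of all named genes). In 14 of the 57 genes every Northeastern Indigenous array lay below every Large White array, a pattern found in 11.6% of named genes. The opposite pattern was found in 0 of the 57 and in 14.3% of named genes. The 14 genes were CCL5, CCL8, CCL14, CCL19, CCL21, CXCL9, CXCL16, CCR1, CCR2, IL6R, IL12RB2, IL13, IL16 and IL34. For 2 of them, both below the array median, the deposited intensities did overlap. IL13 read 4.4 on Northeastern Indigenous replicate 2 and 3.824 on Large White replicate 3, and IL12RB2 read 63.91 and 59.02 there. The nearest deposited intensities of CCR2 were 50.7 on Northeastern Indigenous replicate 3 and 50.84 on Large White replicate 3. With 3 boars a breed, an exact permutation test of any single gene cannot give a two-sided p below 0.1.

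**Figure D1:**
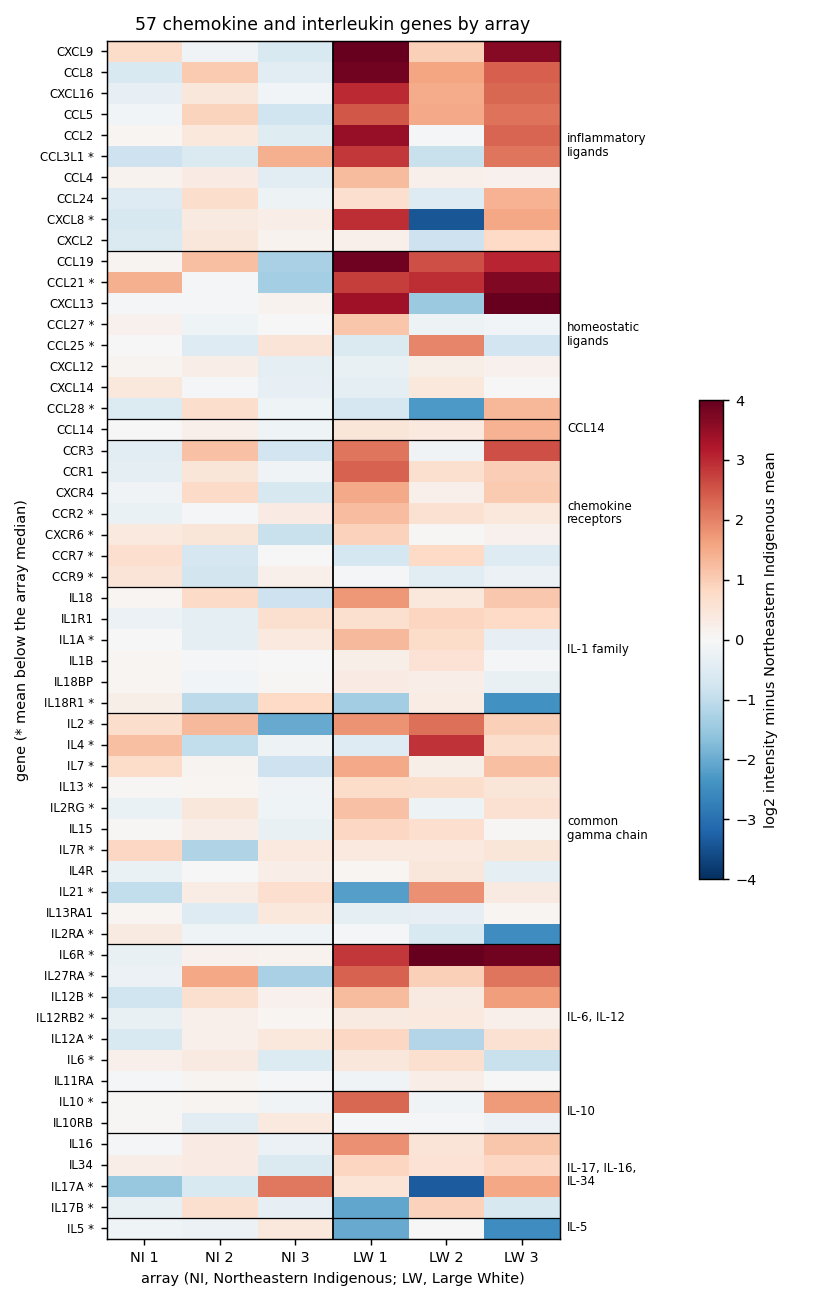
Log2 intensity of each of the 57 genes on each of the 6 arrays, minus that gene's Northeastern Indigenous mean, with Northeastern Indigenous (NI) arrays left and Large White (LW) arrays right. Values beyond the ends of the colour scale take its end colours, and an asterisk marks a mean below the array median. Red fills the Large White columns of CCL19, CCL21, CCL5, CCL8, CXCL16 and IL6R on all 3 arrays, and those of CCL2, CXCL13 and IL10 on replicates 1 and 3 but not on replicate 2.

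Without Large White replicates 1 and 3, which leaves a single Large White array whose spread limma takes from the other breed, 40 of 57 differences were still below 0, against 51.6% of named genes. The median was -0.40 then. Limma called 0 genes in that comparison (0% of named genes). At an unadjusted p under 0.05, 4 genes (CCL19, CCL21, CXCL16 and IL6R) were lower, against 3.78% of named genes. There were 2 higher (CXCL8 and CXCL13), against 6.24%. Without Large White replicate 2 the fit sets the adipocyte-bright arrays alone against the Northeastern Indigenous ones, and limma then called 12 of the 57 genes lower, against 12.6% of named genes, and 0 higher, against 10.5%. The 12 were CCL2, CCL5, CCL8, CCL19, CCL21, CXCL9, CXCL13, CXCL16, CCR3, IL6R, IL10 and IL16, with adjusted p from 0.00475 to 0.0484. At an unadjusted p under 0.05 there were 21 lower without that array, against 19.9% of named genes, and 2 higher, against 22.8%.

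Inflammatory chemokine ligands were the group with the widest differences. All 10 measured members had a negative difference, against 46.7% of all named genes, with a median of -1.64. At an unadjusted p under 0.05 in limma 5 of them were lower, against 10.7% of all named genes. Against the Northeastern Indigenous mean their median stood at 2.89, 0.07 and 2.15 on Large White replicates 1, 2 and 3. On replicate 2, 5 members lay above that mean and 5 below it.

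CXCL16, a membrane-anchored chemokine that is also a scavenger receptor for oxidized lipoprotein, read 6.08, 6.87 and 6.29 in Northeastern Indigenous boars, against 9.39, 7.90 and 8.71 in Large White boars. The breeds did not overlap, and the gap between the nearest boars was 1.03. The difference was -2.25 ± 0.45 (SE; limma adjusted p = 0.261). It was -1.49 against Large White replicate 2 alone. CCL5, a chemokine of T cells and other leukocytes that binds several CCR receptors, read 6.81, 7.80 and 6.12 in Northeastern Indigenous boars, against 9.41, 8.43 and 9.07 in Large White boars. The breeds did not overlap, with Northeastern Indigenous replicate 2 nearest to the Large White arrays. The difference was -2.06 ± 0.48 (SE; limma adjusted p = 0.261), and -1.52 against Large White replicate 2 alone.

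CCL8, a monocyte attractant, read 4.996, 6.66 and 5.17 in Northeastern Indigenous boars, against 9.45, 7.18 and 8.002 in Large White boars. Northeastern Indigenous replicate 2 and Large White replicate 2 lay closest, 0.52 apart. The difference was -2.60 ± 0.69 (SE; limma adjusted p = 0.261), and -1.57 against Large White replicate 2 alone. CXCL9, which interferon gamma induces and which attracts activated T cells, read 8.26, 7.38 and 6.92 in Northeastern Indigenous boars, against 11.68, 8.47 and 11.17 in Large White boars. The breeds were 0.21 apart at their nearest, and Large White replicate 2 lay far under the other arrays of its breed. The difference was -2.92 ± 0.81 (SE; limma adjusted p = 0.262), and -0.95 against Large White replicate 2 alone.

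CCL2, the main monocyte attractant, read 8.57, 8.89 and 7.98 in Northeastern Indigenous boars, against 11.97, 8.42 and 10.83 in Large White boars. Large White replicate 2 lay inside the Northeastern Indigenous range, so the breeds overlapped. The difference was -1.92 ± 0.81 (SE; limma adjusted p = 0.331), and it was 0.065 against Large White replicate 2 alone. The neutrophil attractant CXCL8 read 2.28, 3.25 and 3.19 in Northeastern Indigenous boars, against 5.86, -0.53 and 4.47 in Large White boars, with its lowest and its highest value both in Large White. Its difference was -0.36 ± 1.54 (SE), and all 6 values lay below the array median.

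The other inflammatory ligands had differences with intervals that included 0. CCL3L1 and CCL4, attractants of monocytes and T cells, differed by -1.36 (95% interval -3.85 to 1.13) and -0.55 (-1.49 to 0.39). CCL24, an attractant of eosinophils, differed by -0.51 (-1.74 to 0.71). CXCL2, an attractant of neutrophils, differed by -0.06 (-1.16 to 1.03). CCL14, in human a ligand of CCR1 and in none of the role lists used here, read 8.65, 8.87 and 8.51 in Northeastern Indigenous boars, against 9.17, 9.06 and 10.05 in Large White boars. The breeds did not overlap, and the difference was -0.75 ± 0.33 (SE; limma adjusted p = 0.339). Against Large White replicate 2 alone it was -0.38.

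**Figure D2:**
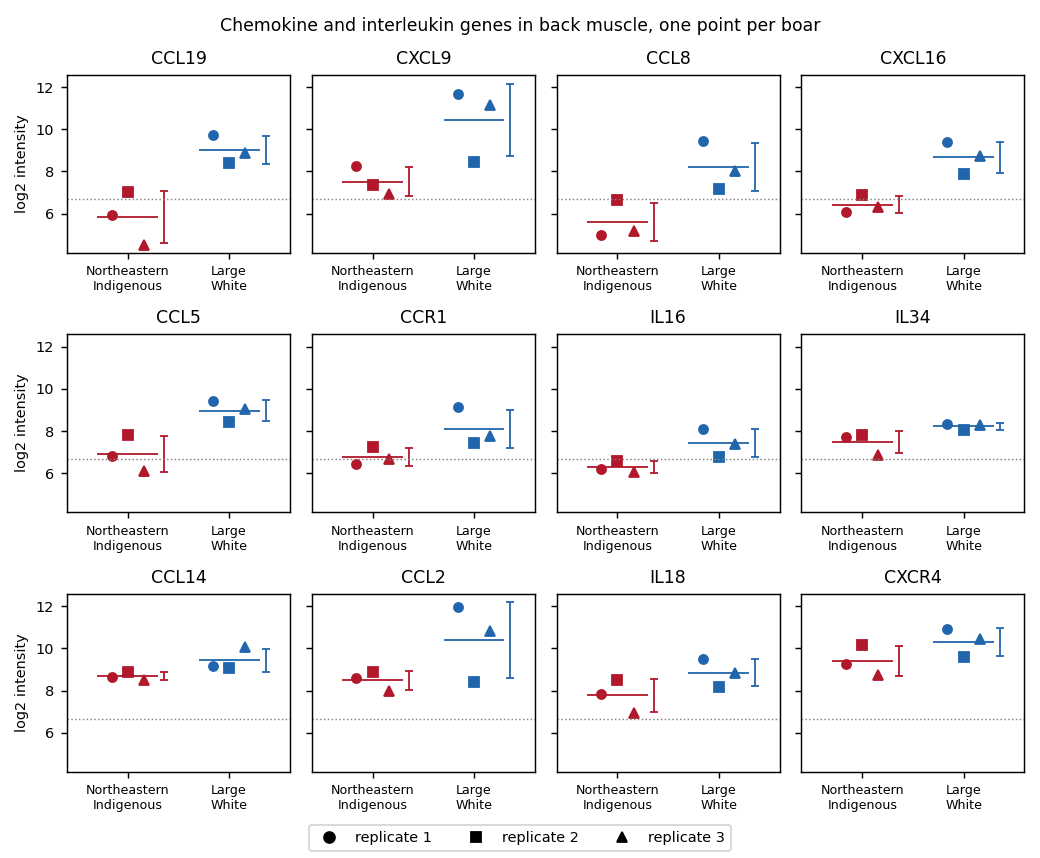
Log2 intensity of 12 genes at or above the array median in Northeastern Indigenous (left, red) and Large White (right, blue) boars, 1 point per boar with the replicate number as its shape. Horizontal lines are means over 3 boars, bars are SDs, and the dotted line is the array median. The breeds do not overlap for CCL19, CXCL9, CCL8, CXCL16, CCL5, CCR1, IL16, IL34 and CCL14 and overlap for CCL2, IL18 and CXCR4.

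Among the 8 homeostatic chemokine ligands, CCL19 and CCL21 had wide differences, while those of CXCL12 and CXCL14 were near 0. CCL19 and CCL21 bind the same receptor, CCR7, and guide dendritic cells and naive T cells into lymph nodes. CCL19 read 5.95, 7.03 and 4.53 in Northeastern Indigenous boars, against 9.72, 8.40 and 8.90 in Large White boars. The breeds did not overlap and were 1.37 apart at their nearest. The difference was -3.17 ± 0.65 (SE; limma adjusted p = 0.261), and -2.56 against Large White replicate 2 alone.

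CCL21 read 6.43, 4.95 and 3.66 in Northeastern Indigenous boars, against 7.78, 7.95 and 8.72 in Large White boars. All Northeastern Indigenous values were under the array median and all Large White values over it. The difference was -3.14 ± 0.70 (SE; limma adjusted p = 0.261). Large White replicates 1, 2 and 3 lay 2.77, 2.94 and 3.71 above the Northeastern Indigenous mean. CCR7 itself was below the array median on all 6 arrays, with a difference of 0.14 (95% interval -1.53 to 1.80).

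CXCL12, made by stromal cells and the ligand of CXCR4, read 11.08, 11.23 and 10.61 in Northeastern Indigenous boars, against 10.67, 11.21 and 11.13 in Large White boars. CXCL14, a constitutively expressed chemokine, read 9.98, 9.48 and 9.22 in Northeastern Indigenous boars, against 9.21, 9.98 and 9.54 in Large White boars. The breeds overlapped almost wholly in both. The differences were -0.03 (95% interval -0.65 to 0.59) for CXCL12 and -0.02 (-0.74 to 0.71) for CXCL14. A second probe set of CXCL12 gave 0.66 ± 0.63 (SE), and one of CXCL14 gave -0.19 ± 0.33 (SE).

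CXCL13, which draws B cells into follicles, varied more within Large White boars than between the breeds. It read 6.08, 6.05 and 6.28 in Northeastern Indigenous boars, against 9.52, 4.65 and 10.18 in Large White boars. Replicates 1 and 3 lay over every Northeastern Indigenous array and replicate 2 under every one. The difference was -1.97 ± 1.30 (SE; limma adjusted p = 0.473), and a second probe set gave -3.14 ± 2.34 (SE). CCL25, CCL27 and CCL28, chemokines of gut, skin and mucosa, were below the array median on all 6 arrays and differed by -0.21, -0.27 and 0.55.

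Among the 7 chemokine receptors, 5 had a negative difference and the median was -0.77. CCR1, a receptor of monocytes and other leukocytes that CCL5 binds, read 6.43, 7.26 and 6.65 in Northeastern Indigenous boars, against 9.14, 7.42 and 7.75 in Large White boars. The breeds were 0.17 apart at their nearest, between replicate 2 of each. The difference was -1.33 ± 0.50 (SE; limma adjusted p = 0.306), and -0.64 against Large White replicate 2 alone. CCR2, the receptor of CCL2, lay below the array median on all 6 arrays, did not overlap between breeds and differed by -0.77 ± 0.45 (SE).

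CXCR4, the receptor of CXCL12, read 9.27, 10.18 and 8.75 in Northeastern Indigenous boars, against 10.92, 9.61 and 10.44 in Large White boars. Northeastern Indigenous replicate 2 lay above Large White replicate 2, so the breeds overlapped. The difference was -0.92 ± 0.46 (SE; limma adjusted p = 0.379), and -0.21 against Large White replicate 2 alone. CCR3, the eosinophil receptor that CCL24 binds, read 6.24, 7.85 and 5.89 in Northeastern Indigenous boars, against 8.80, 6.51 and 9.25 in Large White boars. Large White replicate 2 lay inside the Northeastern Indigenous range, and the difference was -1.52 ± 0.80 (SE; limma adjusted p = 0.396). CXCR6, the receptor of CXCL16, and CCR9, that of CCL25, lay below the array median on all 6 arrays and differed by -0.38 and 0.25.

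In the interleukin-1 family, 5 of 6 differences were below 0, with a median of -0.42. IL18, which is released after inflammasome cleavage and drives interferon gamma production, read 7.83, 8.52 and 6.95 in Northeastern Indigenous boars, against 9.50, 8.19 and 8.86 in Large White boars. The breeds overlapped between replicate 2 of each, and the difference was -1.08 ± 0.49 (SE; limma adjusted p = 0.352). It was -0.42 against Large White replicate 2 alone. IL18BP, the secreted inhibitor of IL18, differed by -0.11 (95% interval -0.88 to 0.66). The receptor subunit gene IL18R1 was below the array median on all 6 arrays and differed by 1.18 (-0.81 to 3.16). Its difference was -0.30 against Large White replicate 2 alone, and 0.59 with an offset of 16.

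IL1B, a main fever-inducing cytokine, read 7.33, 7.18 and 7.25 in Northeastern Indigenous boars, against 7.49, 7.84 and 7.22 in Large White boars. The values overlapped, and the difference was -0.26 ± 0.31 (SE; limma adjusted p = 0.693). Its second probe set, below the array median on all 6 arrays, did not overlap between breeds and gave -1.40 ± 0.71 (SE; limma adjusted p = 0.386). IL1R1, the signalling receptor of both IL1A and IL1B, read 6.17, 6.001 and 7.04 in Northeastern Indigenous boars, against 7.03, 7.28 and 7.19 in Large White boars. The breeds overlapped only between Northeastern Indigenous replicate 3 and Large White replicate 1, and the difference was -0.76 ± 0.39 (SE; limma adjusted p = 0.39), while a second IL1R1 probe set gave 0.17. IL1A differed by -0.57 (95% interval -1.86 to 0.72).

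Among the 11 cytokines and receptors of the common gamma chain group and the related IL13 pathway, 8 differences were below 0 and the median was -0.52. IL15, a cytokine that muscle fibres express and that sustains natural killer and memory T cells, read 8.91, 9.14 and 8.56 in Northeastern Indigenous boars, against 9.71, 9.55 and 8.93 in Large White boars. Large White replicate 3 lay among the Northeastern Indigenous values. The difference was -0.52 ± 0.31 (SE; limma adjusted p = 0.43), and Large White replicate 2 stood 0.68 above the Northeastern Indigenous mean.

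IL4R, the shared receptor chain for IL4 and IL13, read 7.45, 7.72 and 7.99 in Northeastern Indigenous boars, against 7.80, 8.17 and 7.31 in Large White boars. The breeds overlapped and the difference was -0.04 (95% interval -0.83 to 0.75). A second probe set, below the array median on all 6 arrays, gave 1.71 ± 0.70 (SE; limma adjusted p = 0.323), so the probe sets of this gene disagree. Its partner IL13RA1 differed by 0.21 (-0.69 to 1.11). IL2RG, the common gamma chain itself, differed by -0.53 (-1.62 to 0.56). The T-cell cytokines IL2, IL4, IL7, IL13 and IL21 and the receptor genes IL2RA and IL7R were below the median on all 6 arrays, with differences from -1.66 for IL2 to 1.04 for IL2RA. IL2, the growth factor of activated T cells, read 4.09, 4.67 and 1.36 in Northeastern Indigenous boars, against 5.17, 5.58 and 4.33 in Large White boars. The breeds overlapped, and Northeastern Indigenous replicate 3 was far below the other 5 arrays. Without that array the IL2 difference was -0.65, and without Large White replicate 3 that of IL2RA was 0.32. Adding 16 to each intensity before the logarithm gave -0.75 for IL2 and 0.46 for IL2RA.

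The IL-6 and IL-12 families held the gene with the widest difference of all 57. IL6R, the ligand-binding chain for IL6, read -0.08, 0.42 and 0.37 in Northeastern Indigenous boars, against 3.06, 4.42 and 4.10 in Large White boars. The breeds were 2.65 apart at their nearest, and Large White replicate 2 was the brightest array. The difference was -3.62 ± 0.75 (SE; limma adjusted p = 0.261). All 6 values were far below the array median, and adding 16 to each intensity before the logarithm shrank the difference to -0.86. Against Large White replicate 2 alone it was -4.18.

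IL6, which contracting muscle secretes, read 4.91, 5.08 and 4.17 in Northeastern Indigenous boars, against 5.16, 5.36 and 3.82 in Large White boars. The ranges overlapped, and the difference was -0.06 (95% interval -1.48 to 1.36). IL11RA, the receptor chain for IL11, was the only member of this group at or above the median and varied little, from 9.43 to 9.61 in Northeastern Indigenous boars and from 9.35 to 9.76 in Large White boars. Its difference was -0.04 (-0.59 to 0.50). IL27RA, a receptor chain for IL27, read 3.55, 5.32 and 2.48 in Northeastern Indigenous boars, against 6.15, 4.72 and 5.94 in Large White boars, with a difference of -1.82 ± 0.82 (SE; limma adjusted p = 0.35). Northeastern Indigenous replicate 2 lay above Large White replicate 2, and all 6 values were below the array median. The difference was -1.17 without Northeastern Indigenous replicate 3 and -1.03 with the offset of 16. IL12A, IL12B and IL12RB2, of the pathway that favours interferon gamma, differed by -0.08, -1.10 and -0.32 and were below the median on all 6 arrays.

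IL10, which restrains macrophages and dendritic cells, read 5.69, 5.73 and 5.48 in Northeastern Indigenous boars, against 7.92, 5.49 and 7.33 in Large White boars. The Northeastern Indigenous values lay close together and took in Large White replicate 2, while replicates 1 and 3 stood 2.28 and 1.69 above their mean. The difference was -1.28 ± 0.63 (SE; limma adjusted p = 0.378), and 0.14 against Large White replicate 2 alone. IL10RB, a receptor chain shared by several members of the IL-10 family, differed by 0.13 (95% interval -0.60 to 0.86).

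IL16 and IL34, outside these families, did not overlap between breeds. IL16, an attractant of cells that carry CD4, read 6.197, 6.59 and 6.03 in Northeastern Indigenous boars, against 8.10, 6.77 and 7.39 in Large White boars. The breeds were 0.18 apart at their nearest, and the difference was -1.15 ± 0.43 (SE; limma adjusted p = 0.305). It was -0.50 against Large White replicate 2 alone. IL34, a ligand of the macrophage growth factor receptor CSF1R, read 7.72, 7.81 and 6.88 in Northeastern Indigenous boars, against 8.33, 8.05 and 8.30 in Large White boars. The 3 Large White values lay close together, and the difference was -0.75 ± 0.34 (SE; limma adjusted p = 0.353). It was -0.58 against Large White replicate 2 alone. IL17A, IL17B and the eosinophil cytokine IL5 were below the median on all 6 arrays and differed by 0.42, 0.60 and 1.496, with intervals that included 0. Against Large White replicate 2 alone they differed by 3.32, -0.92 and -0.006, and with an offset of 16 by 0.05, 0.28 and 0.61. The other probe sets of IL17B gave -0.33 and -0.82, so its probe sets disagree.

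**Figure D3:**
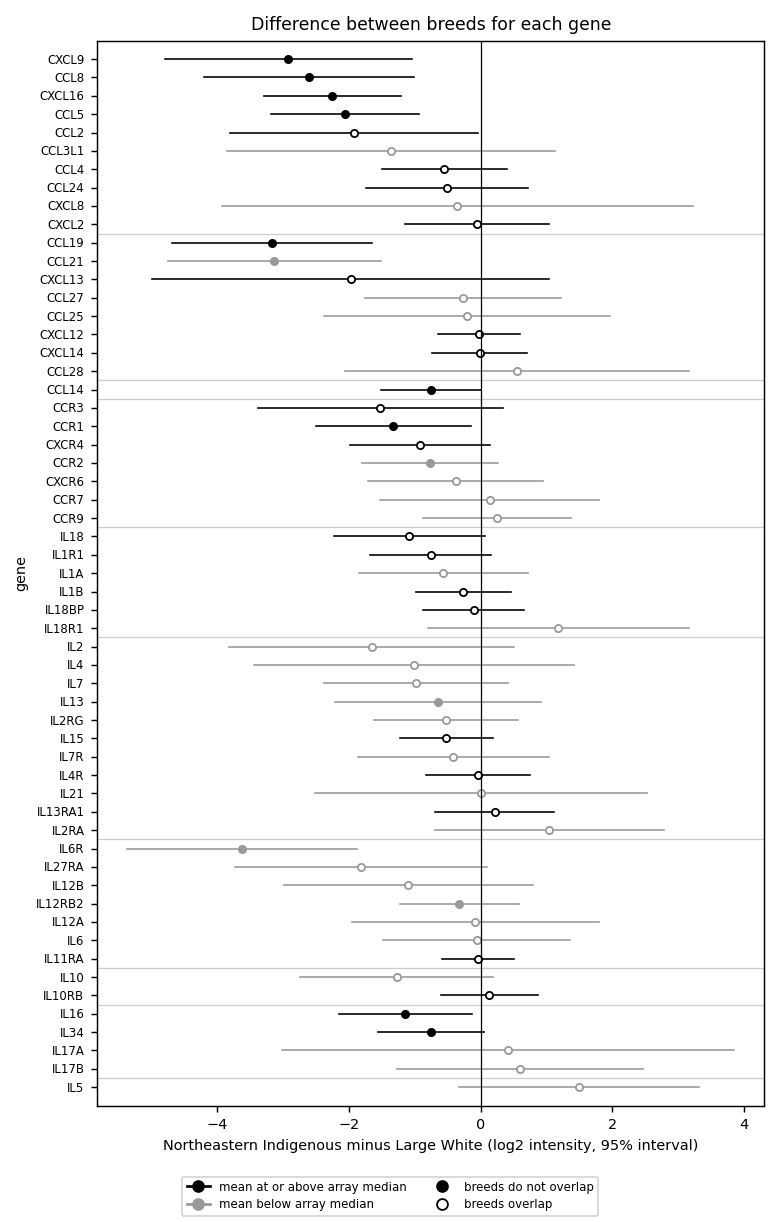
Northeastern Indigenous minus Large White difference of each of the 57 genes in log2 units, with its 95% interval from limma, ordered by role. Filled circles mark the 14 genes whose breeds do not overlap, all of them left of 0, and grey marks the 30 genes with a mean below the array median.

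The 57 genes also differed between boars of one breed. Northeastern Indigenous replicate 2 was the brightest of its breed for 31 of the 57 genes, against 35.2% of named genes, and for 18 of the 27 genes at or above the median. Large White replicate 1 lay above all Northeastern Indigenous arrays in 36 of 57 genes (37.4% of named genes), replicate 2 in 28 (29.5%) and replicate 3 in 31 (31.3%). On Large White replicate 2 the 57 genes had a median of 0.40 above the Northeastern Indigenous mean, where all named genes had 0.02. The median SD over the 57 genes was 0.52 in Northeastern Indigenous and 0.70 in Large White boars.

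Macrophage markers were also dimmer in Northeastern Indigenous boars. Of the 6 measured macrophage markers, 5 had a negative difference and 4 were lower without overlap between breeds, as were 11.6% of named genes. Their summed intensity ran from 1323 to 2718 in Northeastern Indigenous boars, against 6016 to 17476 in Large White boars. CD14 and MARCO were below the array median. C1QC, a complement gene of macrophages, differed by -3.30 ± 0.55 (SE), its partner C1QA by -2.44 ± 0.42 (SE) and AIF1, a macrophage calcium-binding protein, by -2.42 ± 0.52 (SE). On Large White replicates 1, 2 and 3 the median of the list lay 2.49, 1.24 and 2.39 over the mean of the other breed. Among the Northeastern Indigenous arrays the macrophage sum was highest on replicate 2. The same held for every other marker list except that of muscle fibres, so it was not particular to macrophages.

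Of the 8 measured T and natural killer cell markers, 7 had a negative difference. Only 1, CD2, was lower without overlap between breeds, as were 11.6% of named genes. Their summed intensity ran from 201 to 731 in Northeastern Indigenous boars, against 569 to 2115 in Large White boars, so these ranges overlapped. CD2, CD3D, CD3E, CD4, CD8A, CD8B and LCK all had means below the array median. CD2, an adhesion molecule of T cells, differed by -2.46 ± 0.55 (SE). On Large White replicates 1, 2 and 3 the median of this list lay 2.25, 0.64 and 1.83 over the mean of the other breed. Neutrophil markers, 5 of them measured, were mixed, with 3 differences below 0, a median of -0.18 and overlapping sums of 241 to 447 in Northeastern Indigenous and 201 to 831 in Large White boars. ELANE, LTF and S100A8 were below the array median.

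Most adipocyte and fibroblast genes were dimmer in Northeastern Indigenous boars, while most endothelial genes had positive differences with breeds that overlapped. No marker gene passed limma's adjusted threshold. The 8 adipocyte genes all had negative differences, with a median of -3.66, and on Large White replicates 1, 2 and 3 they lay 5.83, 0.05 and 4.32 over the mean of the other breed. LIPE was below the array median. The 7 measured fibroblast and matrix genes had summed intensities of 24941 to 36884 in Northeastern Indigenous boars, against 43181 to 68697 in Large White boars, with 6 differences below 0. Their median lay 1.80, 0.41 and 1.55 over the mean of the other breed on Large White replicates 1, 2 and 3. Of the 8 endothelial genes, 7 had positive differences, with a median of 0.38, and 1, VWF, did not overlap between breeds. On Large White replicates 1, 2 and 3 their median stood at -0.72, 0.08 and -0.26 against the mean of the other breed. Their sums overlapped, at 2220 to 3064 in Northeastern Indigenous and 2530 to 3084 in Large White boars, and KDR and TIE1 were below the median. The 2 measured B cell genes, CD79B below the array median and JCHAIN above it, overlapped between breeds, with sums of 577 to 719 in Northeastern Indigenous and 342 to 1682 in Large White boars. The part of these cell types in the chemokine and interleukin differences was not tested.

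**Figure D4:**
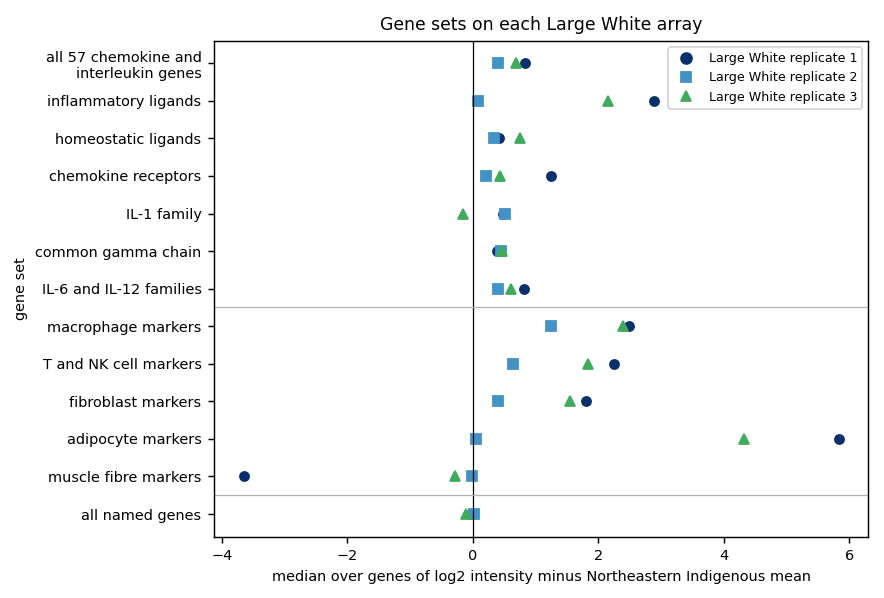
Median over the genes of each set of log2 intensity minus the Northeastern Indigenous mean, on each of the 3 Large White arrays. On Large White replicate 2 the 57 chemokine and interleukin genes stand at 0.40. Macrophage markers stand there at 1.24, T and NK cell markers at 0.64, fibroblast markers at 0.41, adipocyte markers at 0.05 and muscle fibre markers at -0.02.

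Signalling genes downstream of these receptors differed in both directions. Of 14 measured JAK, STAT and SOCS genes, 10 had a negative difference and the median was -0.31. At an unadjusted p under 0.05 in limma 1 was lower, against 10.7% of all named genes, and 0 higher, against 8.62%. STAT2, which carries interferon signals, read 6.37, 6.65 and 6.73 in Northeastern Indigenous boars, against 8.67, 7.83 and 8.01 in Large White boars. It differed by -1.59 ± 0.35 (SE; limma adjusted p = 0.261) with no overlap. STAT3, the main transducer of IL6 and IL10, differed by -0.46 ± 0.24 (SE), also with no overlap.

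Of 8 measured genes of the MYD88 and NF-kB list, 5 had a positive difference and the median was 0.42. On Large White replicates 1, 2 and 3 the list median stood at -0.69, -0.02 and -0.65 against the Northeastern Indigenous mean. NFKBIA, the inhibitor that NF-kB itself induces, differed by -0.66 ± 0.25 (SE; limma adjusted p = 0.307) and IKBKG, the regulatory kinase subunit, by 1.12 ± 0.40 (SE; limma adjusted p = 0.292), both with no overlap. The adaptor kinase IRAK1 differed by 0.74 ± 0.49 (SE) and the ligase TRAF6 by 1.05 ± 0.63 (SE), both with overlap between breeds. Against Large White replicate 2 alone they differed by -0.38 and 0.95, and TRAF6 was below the array median on all 6 arrays. In the list of chemokine receptor signalling, 9 of 10 measured genes had a negative difference, with a median of -1.16. On Large White replicates 1, 2 and 3 that list median stood 2.04, 0.24 and 1.39 above the Northeastern Indigenous mean. At an unadjusted p under 0.05 in limma 4 of its genes were lower, against 10.7% of all named genes. They were RGS10 (-1.89) and RGS2 (-1.95), which shorten G protein signals, the arrestin ARRB2 (-0.83) and the inhibitory G protein GNAI2 (-0.68). Against Large White replicate 2 alone they differed by -0.79, -0.35, -0.64 and -0.28. RGS2 overlapped between breeds and the others did not.

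Among 12 measured interferon and TNF cytokines and receptors, 9 had a negative difference, with a median of -0.41. On Large White replicates 1, 2 and 3 the list median stood 1.00, 0.08 and 0.29 above the Northeastern Indigenous mean. The TNF receptor genes TNFRSF1B and TNFRSF1A differed by -0.85 ± 0.31 and -0.71 ± 0.37 (SE), and the interferon receptor chains IFNAR2 and IFNGR1 by -0.61 and -0.97. Against Large White replicate 2 alone these 4 genes differed by -0.38, 0.012, -0.22 and 0.10. IFNG, which induces CXCL9, was below the array median and differed by -0.77 ± 0.47 (SE). None of the genes in these 4 lists passed limma's adjusted threshold.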

How the data were processed

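RNA of 6 boars was read on Affymetrix Porcine Genome Arrays from biotin-labelled cRNA, per the labels' protocols. The authors deposited linear intensities, 1 for each probe set on each array, and the software that made them is not given in the sources used here. The table held 24123 probe sets, and 124 Affymetrix controls were left out. The platform annotation gave 1 symbol to 10069 probe sets, several to 198 and none to 13732. Another 2 probe sets carry an interleukin receptor symbol beside a second gene and were not used. RefSeq identifiers of Sscrofa11.1 matched all 57 members and changed no symbol. The deposited table names no genome build, so no coordinates are printed.

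Array medians of log2 intensity spanned 0.35, so the arrays were quantile normalized. Breed was fitted on all 23999 probe sets by the lmFit and eBayes functions of limma 3.58.1 (R 4.3.3), the variance prior following intensity. Tests were two-sided with 4 residual degrees of freedom, and p-values were Benjamini-Hochberg adjusted over all probe sets. An error marked SE is that of limma's difference. Arrays have no read depth, and their number limits the precision. The fit was run on simulated data with independent noise, to check that planted differences were recovered on average. Those data held no shift shared by the genes of an array, so they cannot test the effect of such shifts.

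The members and lists were chosen with earlier results of these data known. Values on every array are given for 12 members at or above the median (those of widest difference without overlap, filled by unadjusted p), for 14 measured genes of a fixed list of 15, and for the 4 of widest difference below the median. Adipocyte, fibroblast, endothelial, neutrophil, B cell and muscle fibre markers are described as lists, without differences of single genes. Values are given for up to 4 genes of smallest unadjusted p in each pathway list and in the macrophage and T and natural killer cell lists. IFNG was added to them, CCR3, CXCL13 and IL1R1 were given in full, and IL11RA by its ranges, after their values were seen.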

Additional observations from a re-analysis of the deposited data

How the results depend on the processing

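Values were refitted on the deposited scale, with arrays centred on their medians, under a 40th percentile filter, with an offset of 16, without the intensity trend, with the probe sets of each gene averaged, and without single arrays. Of 331 refitted differences of 24 named genes, 301 kept their direction and their side of the threshold. With 0 probe sets passing the threshold in the original fit, median centring gave 1 and averaging gave 1 gene, neither of them a member. Median centring left 42 negative differences and gave 1 gene that was higher without overlap, IL2RA, and it put CXCL12 at 0.083, IL6 at 0.13, CCL25 at 0.17 and IL12A at 0.14. The filter kept 31 genes, 29 lower and 2 higher, with a median of -0.75. The offset shrank 16 differences by over 1.5 times, all of genes below the array median, and turned that of IL21. Averaging put CXCL12 at 0.31 and IL4R at 0.83.

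Leaving out 1 array gave 0 to 3794 probe sets and 0 to 12 members past the adjusted threshold, the upper end without Large White replicate 2. The members at an unadjusted p under 0.05 were 7 to 21 lower and 0 to 2 higher. Over all 57 genes, 21 differences turned when some single array was left out, the widest of them 0.60 in size, and another 24 kept their direction and moved by over 1.5 times. Among the 24 named genes, 5 turned, and their differences ran from -0.20 to 0.15 for CXCL12, -0.23 to 0.19 for CXCL14, -2.26 to 0.94 for CXCL8, -0.54 to 0.23 for IL6 and -0.27 to 0.16 for IL4R. Without Large White replicates 1 and 3, 17 genes were higher, 4 were lower and 2 higher at an unadjusted p under 0.05, and CCL2 stood at 0.065, CXCL8 at 3.43 and IL10 at 0.14. Among the named genes that kept their direction, single arrays moved CCL2 between -2.92 and -1.14, IL10 between -1.99 and -0.78, CCR1 between -1.67 and -0.81, IL18 between -1.46 and -0.68, CXCR4 between -1.31 and -0.60, CCL14 between -0.94 and -0.44, IL34 between -0.92 and -0.46, IL1B between -0.41 and -0.10, IL2 between -2.30 and -0.65 and IL27RA between -2.59 and -1.17. The cause of these changes was not tested.

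With the replicate number as a block, 0 members passed, 46 differences were below 0, 8 had an unadjusted p under 0.05, and no call changed. The share of all named genes at that unadjusted threshold was not counted in this fit. Same-numbered boars did not deviate together (r = -0.02, -0.06 and -0.03 across probe sets). With few arrays and wide differences among the Large White ones, this cannot exclude that the numbers pair the boars.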
